A study of Ovis aries with 16 samples.

Results

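The miR-17 and miR-25 cluster families were represented by 5 of the 105 miRNAs listed for liver and thigh muscle of adult sheep, namely MIR17, MIR106A, MIR106B, MIR25 and MIR19B. They were taken by name from the miRNA table. The libraries are small RNA libraries from 8 female Suffolk sheep, 1 of liver (tip of the left lobe) and 1 of vastus lateralis per animal, 16 in all. The BPA group is 4 animals whose mothers were given bisphenol A, which is used to make polycarbonate and can bind oestrogen receptors, in corn oil, at 0.5 mg per kg daily under the skin from day 30 to day 90 of gestation. The control group is 4 animals whose mothers were given corn oil, the vehicle, on the same days. All animals were about 21 months old and had fasted for 48 hours; their oestrus was synchronised by 2 prostaglandin injections spaced 11 days apart, and tissue was taken 24 hours after the second, late in the follicular phase. The exposure was that of the mother, no allele or transgene distinguishes the groups, and each library is 1 tissue of 1 animal.

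These miRNAs come from 3 related clusters that arose by duplication. In mammals the miR-17/92 cluster is transcribed as one long precursor, the miR-106a cluster lies on the X chromosome, and the miR-106b/25 cluster lies in an intron of MCM7, a subunit of the helicase that opens DNA for replication. MIR17, MIR106A and MIR106B carry the same seed, the short stretch by which a miRNA recognises its targets, and belong to one target family. MIR25 has the seed of the miR-25/92 family, and MIR19B that of the miR-19 family. The clusters are known for promoting cell cycle progression and cell survival by lowering the cell cycle inhibitor p21 and the pro-apoptotic factor BIM, and they are induced by MYC and E2F factors. Their targets are protein-coding and are not among the RNAs measured in these libraries.

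In the RefSeq gene table of sheep assembly ARS-UI_Ramb_v3.0, which may not be the build used for counting, all 5 members were matched by symbol. MIR17 and MIR19B are neighbours on chromosome 10 and lie within one locus, LOC132657304, which is annotated there as protein-coding. MIR106B and MIR25 are neighbours on chromosome 24, both within MCM7, and MIR106B also overlaps the lncRNA locus LOC132658530. MIR106A lies on chromosome X within no annotated gene. Of 11 further names looked for in the same clusters and families (MIR18A, MIR18B, MIR19A, MIR19B, MIR20A, MIR20B, MIR92A, MIR92B, MIR93, MIR363 and MIR32), 1 is in the table, MIR19B, and the other 10 were not analysed here. Each value is for a hairpin gene, so its mature arms cannot be told apart. The mature forms of MIR17 and MIR106A are nearly identical, and how the counting treated reads that match both is not given in the sources used here, so the split between them is uncertain.

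Values are normalized counts, that is reads divided by a size factor of each library, deposited with each tissue scaled alone. Reads assigned to miRNAs numbered 94393 to 240815 in control livers, 578150 to 1383538 in BPA livers and, in muscle, 471691 to 559705 for control and 596919 to 1044886 for BPA animals. Every BPA liver was thus deeper than every control liver, and every BPA muscle was deeper than every control muscle. Of the marker miRNAs listed for each tissue, 2 of 4 for hepatocytes (MIR194 and MIR148A) summed to at least 30405 in every liver and at most 2421 in any muscle after rescaling over both tissues, and 1 of 7 for striated muscle (MIR133) was at 289260 or more in every muscle and at most 589 in any liver. In these whole tissues, fewer cells of a type and less of an RNA per cell cannot be told apart.

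The 5 members spanned a wide range of levels, from MIR25 down to MIR19B. Per nucleotide of the annotated hairpin (80 to 87 nt), on values rescaled over both tissues, the mean level in the 8 livers was 22.7 ± 8.31 for MIR25, 3.55 ± 0.59 for MIR106B, 1.12 ± 0.225 for MIR17, 0.147 ± 0.0416 for MIR106A and 0.0463 ± 0.0236 for MIR19B (SD, n = 8). No 2 neighbours in this order overlapped in liver. In muscle the order was the same, with 50.0 ± 4.62 for MIR25, 11.2 ± 1.49 for MIR106B, 0.77 ± 0.183 for MIR17, 0.0404 ± 0.0213 for MIR106A and 0.0174 ± 0.0132 for MIR19B per nucleotide, and there the last 2 overlapped. MIR25 gave 77.7% ± 3.3 of the reads of the 5 members in control livers and 81.3% ± 1.27 in control muscle (SD, n = 4). The members on chromosomes 10 and X were thus minor beside those in MCM7, and MIR106A and MIR19B rested on few reads.

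Prenatal BPA was compared with control first in liver, where 1 of the 4 members tested, MIR25, passed. Among all 78 miRNAs tested 11.5% passed, 6.41% higher and 5.13% lower in BPA livers, and with so few members their count cannot be read against that share. The deposited value of MIR25 was 1133 in control liver 902, 1882 in 908, 1931 in 924 and 1651 in 928. In BPA livers it was 3925 in 910, 3191 in 918, 2711 in 977 and 2247 in 984. All BPA livers lay above all control livers, as they did for 6.41% of the miRNAs tested (all lay below for 10.3%), and the nearest libraries of the groups were control 924 and BPA 984.

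**Figure D1:**
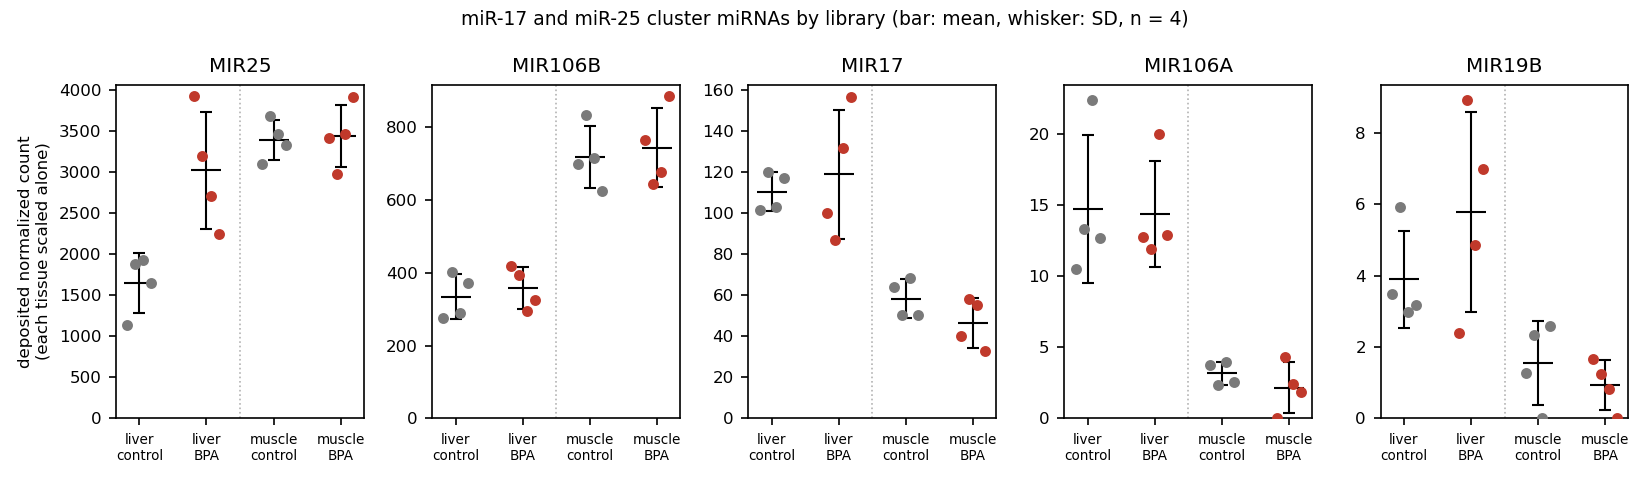
Deposited normalized counts of the 5 members (vertical axis, from 0, one panel each) in control (grey) and BPA (red) libraries of liver and muscle; points are libraries, bars means and whiskers SD (n = 4). The BPA livers sit above the control livers for MIR25, at 2247 to 3925 against 1133 to 1931, and overlap them for the other 4 members; heights compare within a tissue only, since each was scaled alone.

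MIR25 rose by 0.87 ± 0.25 (SE) on the log2(value + 1) scale (95% interval 0.34 to 1.41; limma, BH-adjusted p = 0.0417 over the 78 miRNAs, rank 7 by p). The call was lost on leaving out any single library other than BPA 984 (limma adjusted p from 0.0502 to 0.1361, log2 differences from 0.70 to 0.96). Over 18 alternatives, in each of which MIR25 was higher in BPA livers, the adjusted p ran from 5.55e-05 to 0.1361. The lowest came with 1 size factor over the 4 tables, where 65 of the 78 miRNAs were called. As a share of all miRNA reads, which needs no size factor, MIR25 made up 0.47% ± 0.106 in control livers and 0.865% ± 0.177 in BPA livers (SD, n = 4), again without overlap.

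Several other measures moved with treatment in these livers. Summed on the deposited scale, 3 epithelial markers (MIR200A, MIR200B and MIR200C, of 5 listed, none at 0) ran from 482 to 1367 in controls. In BPA livers the sum ran from 1504 to 1965. After rescaling over both tissues the groups overlapped, at 397 to 1147 and 1121 to 1722. Of the 3, only MIR200B passed by itself in liver (log2 difference 2.07, limma adjusted p = 0.00071). MIR200C was at 0.54 (limma adjusted p = 0.6797) and MIR200A at -0.14 (limma adjusted p = 0.9028), both with overlapping groups. Reads of snRNAs per 100 miRNA reads ran from 12.45 to 41.2 in control and from 0.137 to 0.279 in BPA livers, and those of snoRNAs from 3.69 to 8.47 in control and from 0.944 to 2.92 in BPA livers. The part of any of these in the difference of MIR25 was not tested. For depth, with every liver thinned to the reads of the shallowest the log2 difference was 0.86 (limma adjusted p = 0.0297). Thinning evens the read numbers only. Every BPA liver was deeper than every control liver, so depth and treatment cannot be told apart. By the library codes in the labels, control 902 and BPA 977 and 984 have codes up to 79, BPA 910 and 918 have 95 and 96, and the other 3 controls have codes above these. Within the first range MIR25 was at 1133 in the control and at 2711 and 2247 in the BPA livers. That is a log2 difference of 1.12, but it rests on 1 control, the shallowest liver and the one with the lowest MIR25. The other 2 ranges hold livers of 1 treatment only.

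MIR106B, the neighbour of MIR25 in MCM7, had no such separation. Its deposited value was 276 in control liver 902, 401 in 908, 291 in 924 and 371 in 928, against 417 in BPA liver 910, 395 in 918, 294 in 977 and 325 in 984. The groups overlapped throughout, and the log2 difference was 0.10 ± 0.25 (95% interval -0.44 to 0.64; limma adjusted p = 0.9028).

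The ratio of the neighbours within a library does not depend on size factors. There were 4.10, 4.69, 6.65 and 4.45 reads of MIR25 per read of MIR106B in control livers 902, 908, 924 and 928. In BPA livers 910, 918, 977 and 984 there were 9.40, 8.09, 9.21 and 6.91. Every BPA liver thus had a higher ratio than every control liver, although BPA 984 exceeded control 924 by little. The mean log2 ratio was 2.28 ± 0.308 in control and 3.06 ± 0.205 in BPA livers (SD, n = 4), a difference of 0.78. The two-sided exact permutation p was 0.0286, the smallest that 4 against 4 allows. After BH adjustment over 4 ratio tests it was 0.1143, which does not pass. A ratio that alone reaches the smallest p cannot pass this adjustment, so the adjusted p cannot decide here. In muscle the ratio was 4.75 ± 0.427 in control and 4.64 ± 0.321 in BPA animals, overlapping and with a log2 difference of -0.03 (exact permutation p = 0.7143, adjusted 0.7143). Whether the difference in ratio itself differed between the tissues was not tested.

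**Figure D2:**
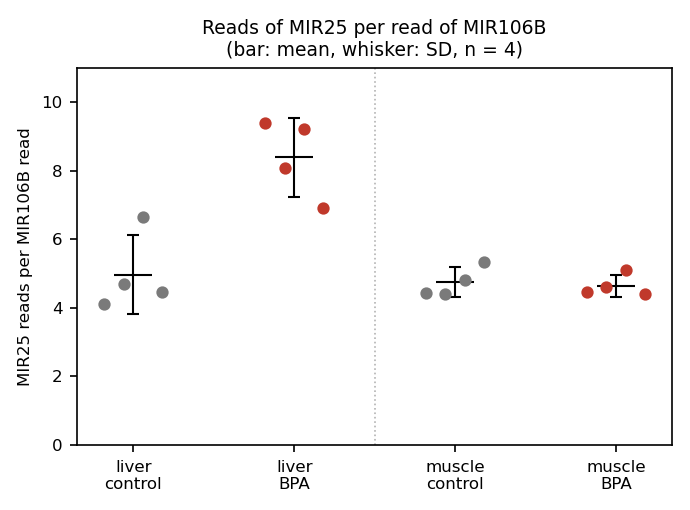
Reads of MIR25 per read of MIR106B (vertical axis, from 0) in each library of the 4 groups; points are libraries, bars means and whiskers SD (n = 4). The BPA livers lie at 6.91 to 9.40, above the control livers at 4.10 to 6.65, and both muscle groups lie between 4.41 and 5.33.

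The 3 remaining members did not pass in liver. MIR17, the first miRNA of its cluster, was at 101, 120, 103 and 117 in control livers 902, 908, 924 and 928. In BPA livers 910, 918, 977 and 984 it was at 100.04, 86.8, 132 and 156. The BPA livers thus spread to both sides of the controls, with 910 and 918 low and 977 and 984 high. For MIR25 these pairs stood the other way round, with 910 and 918 above 977 and 984. The log2 difference of MIR17 was 0.07 ± 0.27 (95% interval -0.52 to 0.66, limma adjusted p = 0.9080). MIR106A, at 10.49 to 22.3 in control and 11.9 to 19.95 in BPA livers, had 3 to 15 reads in the control libraries and a log2 difference of -0.01 ± 0.34 (limma adjusted p = 0.9839). MIR19B, at 2.98 to 5.92 in control and 2.39 to 8.91 in BPA livers, rested on 1 to 4 reads per control library and was below the mean value of 5 needed for the test (without this filter 0.40, limma adjusted p = 0.6245). Over the 4 members tested the median log2 difference was 0.09, against 0.05 over all 78 miRNAs.

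**Figure D3:**
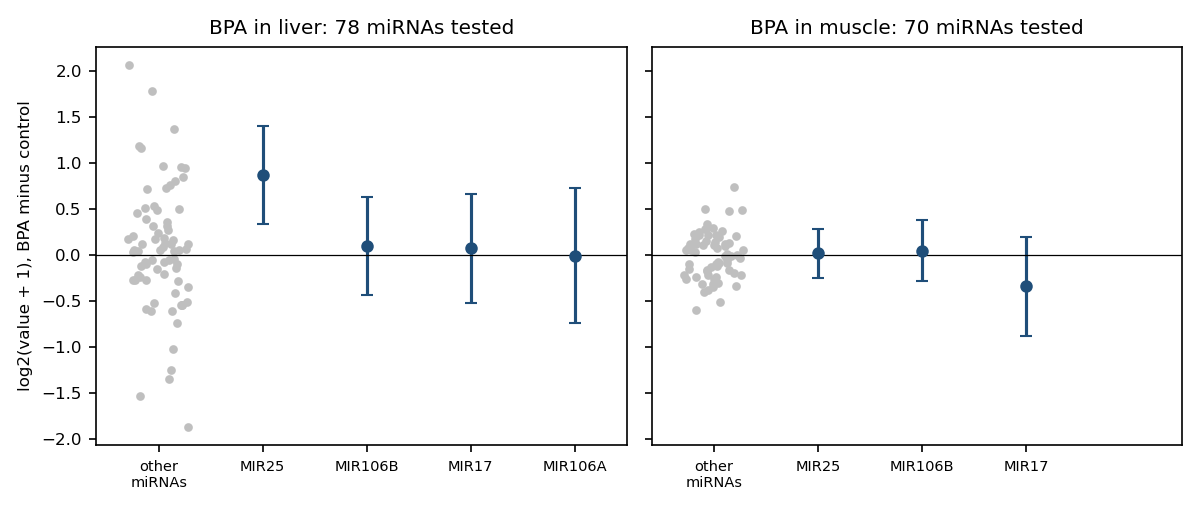
Difference of log2(value + 1), BPA minus control (vertical axis), in liver and muscle; dark points are tested members with 95% intervals from limma, grey points the other miRNAs tested. In liver MIR25 lies at 0.87 with an interval above 0, while the intervals of the other members in both tissues include 0.

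In muscle no member passed, nor did any of the 70 miRNAs tested (0% called; limma, edgeR and DESeq2 each gave 0 calls, and 3, 4 and 4 miRNAs had an unadjusted p under 0.05). All BPA muscles lay above all control muscles for 4.29% of these miRNAs and below for 2.86%, with no member among them. MIR25 was at 3099, 3679, 3459 and 3326 in control muscle 902, 908, 924 and 928 and at 3408, 2972, 3465 and 3908 in BPA muscle 910, 918, 977 and 984. Those groups overlapped, and the log2 difference was 0.02 ± 0.13 (95% interval -0.25 to 0.29; limma adjusted p = 0.9670). MIR106B spanned 624 to 833 among control and 644 to 887 among BPA muscles, with a log2 difference of 0.05 ± 0.15 (95% interval -0.28 to 0.38; limma adjusted p = 0.8778). MIR17 had values of 64.2, 50.5, 68.4 and 50.4 in the control muscles and of 39.9, 58.1, 55.4 and 32.9 in the BPA muscles, in the same order of animals. Its 2 lowest values were those of BPA 984 and BPA 910, but the groups overlapped (log2 difference -0.34 ± 0.25, 95% interval -0.88 to 0.20; limma adjusted p = 0.8407). All 4 control muscles have lower library codes (up to 76) than all 4 BPA muscles (77 and above), so the code and the treatment cannot be told apart there. Depth cannot be told apart from treatment either, at 559705 miRNA reads or fewer in control and 596919 or more in BPA muscles. Reads of snoRNAs per 100 miRNA reads ran from 0.587 to 0.692 in control and from 1.30 to 2.67 in BPA muscles, while those of snRNAs overlapped.

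MIR106A and MIR19B were below the filter on low values in muscle; without the filter neither passed (log2 differences of -0.61 and -0.33, both at a limma adjusted p = 0.8602). MIR106A had 2 or 3 reads in each control muscle and 0, 7, 3 and 2 in BPA muscle 910, 918, 977 and 984. The 0 in BPA 910 allows a value of up to 2.50, which is 3 reads, so that it cannot be set apart from the controls at 2.35 to 3.94. MIR19B had 0 to 2 reads in every muscle library, with 0 in control 924 and in BPA 984, where 3 reads would be 3.94 and 2.82. A difference by treatment was not detectable for either at this depth.

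The difference of the BPA effect between muscle and liver was then tested in all 16 libraries. For MIR25 it was -0.86 ± 0.27 on the log2 scale (95% interval -1.43 to -0.28), rank 4 by p of 76 miRNAs, and it did not pass (limma adjusted p = 0.1083; 2.63% of the miRNAs passed, 1.32% in each direction). It passed without animal 984 (-1.05, limma adjusted p = 0.0273) and was at an adjusted p = 0.2366 with the animal as a replicate block, from 3.01e-05 to 0.4188 over all alternatives. The lowest of these came with 1 size factor over the 4 tables, where 70 of the 76 miRNAs were called. MIR17, MIR106B and MIR106A had interactions of -0.41 ± 0.34, -0.05 ± 0.27 and -0.60 ± 0.60 (limma adjusted p = 0.5212, 0.9533 and 0.6027).

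Between the tissues, MIR106B was higher in muscle under every scaling tried, while the direction of MIR25 and of MIR17 turned with the scaling. MIR106A and MIR19B had few reads in muscle. Since the deposited values of the tissues share no scale, these values were rescaled by median of ratios over the 16 libraries. Of 75 miRNAs tested, 76% differed between the tissues, 36% higher and 40% lower in muscle, so that a call alone says little about any one of them. With reads scaled instead by each library's total miRNA reads, an alternative chosen after seeing the data, 10 miRNAs were higher and 57 lower in muscle, and the median log2 difference of all miRNAs moved from -0.14 to -1.52. On the deposited scale 17 were higher and 45 lower, with a median of -0.72.

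MIR106B was at 227 to 346 in the 8 livers, with a median of 288, and at 704 to 1049 in the 8 muscles, with a median of 881. It was higher in muscle by 1.67 ± 0.14 (limma adjusted p = 1.46e-09) and higher in muscle in 8 of 8 animals, without overlap of the tissues. As a share of miRNA reads it was higher in 7 of 8 animals and the tissues overlapped, at 0.0837% to 0.115% of reads in liver and 0.0998% to 0.158% in muscle; scaled by total miRNA reads the log2 difference was 0.29 (limma adjusted p = 0.0489). MIR25 ran from 931 to 2926 in liver (median 1725) and from 3661 to 4631 in muscle (median 4267), a log2 difference of 1.22 ± 0.14 (limma adjusted p = 9.99e-08), again in 8 of 8 animals and without overlap. As a share of miRNA reads, however, MIR25 was higher in muscle in 4 of 8 animals and lower in the other 4, at 0.343% to 1.07% in liver and 0.461% to 0.696% in muscle, and scaled by total miRNA reads its log2 difference was -0.15 (limma adjusted p = 0.2930). It was positive and passed in the other 18 alternatives, at 0.64 to 1.40. Relative to the median of all miRNAs, MIR25 was higher in muscle by 1.36 and MIR106B by 1.81 on both scales.

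MIR17 ran from 74.6 to 130 in liver (median 89.9) and from 38.9 to 83.8 in muscle (median 67.5), so that the tissues overlapped. It was lower in muscle by a log2 difference of -0.55 ± 0.18 (limma adjusted p = 0.0087) in 7 of 8 animals, but at 0.54 with quantile normalization (limma adjusted p = 0.0136), and the call was lost without animal 984 (-0.37, limma adjusted p = 0.0640) and with edgeR (-0.32, adjusted p = 0.1617). Scaled by total miRNA reads it was at -1.91. MIR106A ran from 8.62 to 18.005 in liver and from 0 to 5.33 in muscle without overlap, and was lower in muscle in 8 of 8 animals. It passed the filter only through its liver values and had 0 to 7 reads per muscle library, so its call is not read as a result, and its log2 difference of -1.72 ran from -2.83 to -0.61 over the alternatives. MIR19B ran from 1.78 to 7.81 in liver and from 0 to 2.96 in muscle and was below the filter; without it, MIR19B was lower in muscle by a log2 difference of -1.06 (limma adjusted p = 0.0110), on 0 to 2 reads per muscle library.

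**Figure D4:**
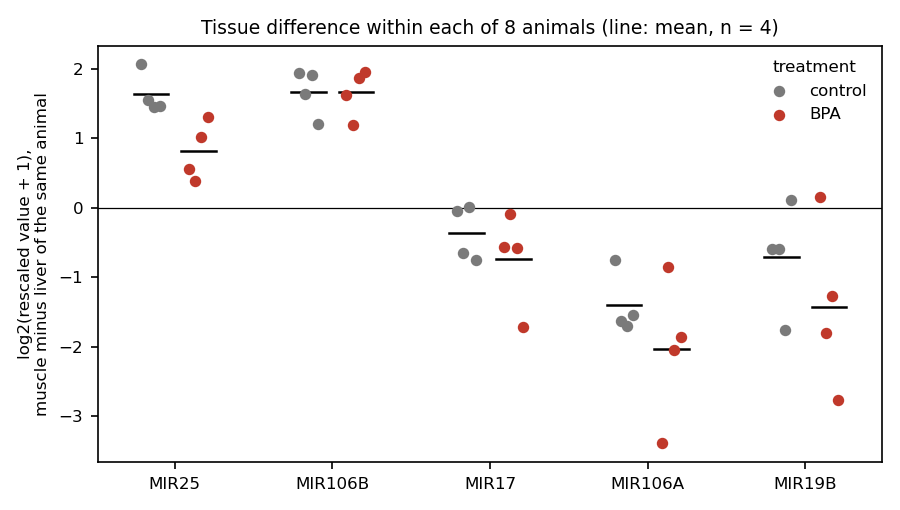
Muscle minus liver of the same animal in log2(rescaled value + 1) (vertical axis) for each member; points are animals, grey control and red BPA, and lines means (n = 4). MIR25 and MIR106B lie above 0 in all 8 animals on this scale (as a share of miRNA reads, in 4 and 7 of 8) and MIR106A below 0 in all 8, while MIR17 (lower in muscle in 7 of 8, but higher on average with quantile normalization) and MIR19B lie on both sides.

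The tissue difference of MIR25 was 1.63 ± 0.291 in the 4 control animals and 0.82 ± 0.421 in the 4 BPA animals (SD, n = 4), with control animals from 1.45 to 2.06 and BPA animals from 0.39 to 1.30. That of MIR106B was 1.67 ± 0.342 and 1.66 ± 0.339. These values restate on the rescaled values the interactions given above, which did not pass.

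The make-up of the reads of MIR17, MIR106A and MIR106B, the listed members with the miR-17 seed, differed by tissue. Of the further names looked for, MIR20A, MIR20B and MIR93 are not among the miRNAs listed. The percentages below therefore cover MIR17, MIR106A and MIR106B only, and may not cover all reads with that seed. MIR106B gave 72.55% ± 2.42 of the reads of MIR17, MIR106A and MIR106B in control livers and 72.6% ± 7.81 in BPA livers, against 92.0% ± 1.45 and 93.6% ± 2.38 in control and BPA muscle (SD, n = 4). MIR17 gave 24.2% ± 1.6 and 24.4% ± 7.21 in control and BPA livers and 7.55% ± 1.33 and 6.07% ± 2.18 in muscle. In every liver MIR106B stayed at or below 80.0% of these reads, and in every muscle it was above 90%, without overlap of the tissues. Within liver the BPA animals fell into 2 pairs on either side of the controls. MIR106B was at 78.7% in BPA 910 (95% Wilson interval 76.9% to 80.5%) and 80.0% in BPA 918 (77.1% to 82.6%), above the controls, and at 66.0% in BPA 977 (62.85% to 69.0%) and 65.8% in BPA 984 (62.6% to 68.8%), below them. The 4 controls lay from 69.9% to 75.1%, with Wilson intervals from 62.15% to 80.3% that overlap those of the BPA livers. The pairs differ in library code, 95 and 96 against 71 and 72, and the part of the code was not tested.

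By pattern over the 16 libraries, MIR25 and MIR106B were not each other's nearest miRNA, nor was MIR17 the nearest to MIR19B. MIR19B and MIR106A were below the mean rescaled value of 10 asked of candidates. Neither could therefore be the nearest to another member. The measure was the root mean square difference of log2(rescaled value + 1), each miRNA centred on its own mean. The nearest to MIR25 were MIR16B and MIRLET7A, at 0.29 and 0.30, with MIR106B at rank 6 of 70 and 0.39. The nearest to MIR106B were MIRLET7B and MIR181A-2, at 0.19 and 0.23, and MIR25 was at rank 10. The nearest to MIR17 were MIR107 and MIR103, at 0.26 and 0.30, with MIR25 at rank 44 and MIR106B at rank 52. Of the members with few reads, MIR106A was nearest to MIR3958 and MIR379, at 0.62 and 0.69, and MIR19B to MIR143 and MIR218A, at 0.58 and 0.63; MIR17 was at rank 7 for each, at 0.79 and 0.71. The measure includes counting error, which is large for these last members.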

How the data were processed

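Small RNA libraries of 2 tissues from 8 animals were grouped by the tissue and treatment in the labels, 4 per group. Tools listed in the submitters' processing notes, with no role stated, are featureCounts 1.6.1, STAR 2.6.0c and cutadapt 3.2; which genome build, annotation and normalization tool were used is not given in the sources used here. Values were deposited in a single unit, a normalized count (a signal), which by the deposited values themselves is reads divided by 1 size factor per library; no label or header states this step of the authors. In every library 100% of the miRNA values were whole multiples of 1 step (tolerance 0.001), which recovers the reads. In R 4.3.3, log2(value + 1) was tested with limma 3.58.1, the variance being fitted as a trend of the mean, for miRNAs with a mean value of at least 5, two-sided, with Benjamini-Hochberg (BH) adjustment over all miRNAs tested and a threshold of 0.05; fold changes on this scale understate low miRNAs. BPA effects and their interaction with tissue used deposited values. The tissue difference used recovered reads scaled by median of ratios over 16 libraries, since deposited tissue differences were offset by -0.59 log2 units. Ratios of reads (plus 0.5) were compared by exact permutation. Alternatives included edgeR 4.0.16 and DESeq2 1.42.0 on the recovered reads and, added after seeing the data, scaling by total miRNA reads. The limma fit of BPA against control within each tissue was tested on simulated data, and the other fits were not. The simulation gave every miRNA the same dispersion and the groups no shift in RNA make-up. It therefore does not show how the fit behaves in these livers. All libraries of a group differed from each other by more than sampling noise (chi-square over its degrees of freedom at least 18.2). Wilson intervals and limits for 0 reads cover counting error only. The limma intervals instead rest on the spread between libraries. Same-numbered liver and muscle libraries are paired, since the labels give them 1 sheep. The main fits over 16 libraries left this pairing out, and the animal as a replicate block was an alternative. With the block, the limma adjusted p of the tissue difference was 7.93e-07 for MIR106B, 6.98e-06 for MIR25 and 0.0344 for MIR17. The deviations of same-animal libraries correlated by -0.73 to 0.44 across 70 miRNAs. The members and lists were chosen with earlier results of these data known. Named miRNAs are the members, their cluster partners and, for each member, the 2 miRNAs of mean rescaled value of at least 10 with the most similar pattern. Of the marker lists, leukocyte (MIR150), endothelial (MIR221) and fibroblast and smooth muscle (MIR143, MIR199A) sums overlapped between control and BPA in both tissues, and no erythroid marker of 3 is in the table.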

Additional observations from a re-analysis of the deposited data

Results flagged for a closer look

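MIR106A in BPA livers was flagged for a library far from the others of its group: BPA 977 was at 19.95, with the other 3 between 11.9 and 12.9. The log2 ratio of MIR17 to MIR106A in control livers was flagged for control 924, at 2.17 with the other 3 between 3.06 and 3.10. It rests on 69 and 15 reads, and control livers 902 and 928 had 3 and 4 reads of MIR106A. Of 28 sets of 4 libraries examined, 2 were flagged, and chance flags about 1 in 20.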

How the results depend on the processing

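With 1 size factor over the 4 tables, the median log2 difference of all miRNAs was 1.51 in liver and -1.98 in the interaction. The calls then became 65 miRNAs and 4 members in liver and 70 and 4 in the interaction, and MIR106A was at 1.34 in liver. Relative to that median, MIR25 was at 0.83 and MIR106B at 0.05, against 0.82 and 0.05 on the deposited scale. Leaving out 1 animal gave 4 to 15 called miRNAs in liver (4 without BPA 918, 5 without BPA 910, 15 without BPA 984) and 0 to 1 called members, and 0 to 9 miRNAs and 0 to 1 members in the interaction, where 2 miRNAs passed with all animals and 0 without 910, 918, 924 or 928. Thinning gave 14 calls in liver. In the interaction edgeR gave 1, quantile normalization 4 and the replicate block 0, with MIR25 at a limma adjusted p = 0.2366; the block changed no call of a member in either 16-library fit. In muscle, 0 miRNAs passed in all 17 alternatives.

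Signs turned for members that had not passed. In liver, MIR106A was at 0.25 and MIR106B at -0.10 with quantile normalization and MIR106A at 0.57 with the code range (a comparison that rests on control 902 alone). In muscle, MIR106B and MIR25 were at -0.18 and -0.21 with 1 size factor, and MIR25 at -0.042 with quantile normalization. In the interaction, MIR106B was at 0.17 with quantile normalization and at 0.067 with thinning, where MIR106A was at 0.50. Scaling by total miRNA reads, chosen after seeing the data, gave 0.0062 for MIR106A in liver and 0.047 for MIR106B in the interaction. Of members called between tissues, MIR25 turned to -0.15 with that scaling and MIR17 to 0.54 with quantile normalization. Leaving out 1 animal gave, in liver, -0.17 to 0.20 for MIR106A and -0.072 to 0.21 for MIR17, in muscle, -0.048 to 0.084 for MIR25 and -0.041 to 0.12 for MIR106B, and in the interaction -0.18 to 0.064 for MIR106B. The log2 ratio of MIR25 to MIR106B differed by 0.69 to 0.92 in liver and by -0.077 to 0.025 in muscle, and that of MIR17 to MIR106A by -0.058 to 0.27 in liver and -0.048 to 0.93 in muscle. The latter rests on BPA 910, with 0 reads of MIR106A (0.62 with it, -0.048 without). The causes were not tested. Depth limits MIR106A and MIR19B most.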
